A study of Arabidopsis thaliana with 4 samples.

Results

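The 5 genes described here encode parts of photosystem II or enzymes of the Calvin cycle in Arabidopsis thaliana: the subunit genes PSBY (AT1G67740) and PSBW (AT2G30570), the antenna gene LHB1B2 (AT2G34420), and the enzyme genes PRK (AT1G32060) and SBPASE (AT3G55800). They were given as a list of loci, each with a probe assigned to that locus alone, out of 5265 genes with such a probe and 25415 features tested in all. The list was drawn up with earlier results of these data known and does not hold every such photosynthesis gene: 6 others, PSB27 and PSAN among them, are described further on. Each had 1 probe, and each probe gave a value on all 4 arrays.

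Total RNA of apetala1 inflorescences was hybridised together with total RNA of wild-type inflorescences on 4 long-oligonucleotide arrays read in 2 colours, which the labels call sets 1 to 4. APETALA1 is a MADS-box transcription factor that specifies floral meristems, sepals and petals, and its mutants form leaf-like organs and extra flowers in place of them. Per the labels, apetala1 RNA was in channel 1 on sets 1 and 3 and in channel 2 on sets 2 and 4, with wild-type RNA in the other channel. The sources used here give no apetala1 allele, accession, plant age or number of pooled plants. Nothing in them tells biological from technical replication, so each p-value reflects the spread among 4 arrays that may share their plants. That number of arrays limits the precision of every value.

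The question is how transcripts of photosynthesis compare between apetala1 and wild-type inflorescences. Photosystem II takes electrons from water with the energy of light, which its antenna of chlorophyll-binding proteins collects. The Calvin cycle spends the resulting ATP and NADPH to fix carbon dioxide. In an inflorescence this machinery is found mainly in green parts such as sepals, carpels and stems, while mature petals are largely without it.

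Each value is the log2 ratio of the 2 channels of an array. The labels name no numerator, so the direction of every ratio is unknown, and neither genotype is called higher. Ratios of sets 2 and 4 were turned, that is, multiplied by -1, to set them in the sign of sets 1 and 3. The correlations that led to turning were already known when it was chosen, and the labels do not say whether the deposited columns already shared one direction. Both forms are therefore given. After turning, a ratio that follows the genotypes under this reading adds up, and one that keeps a sign regardless of channel order cancels. In tissue samples such as these, fewer green cells and less RNA per green cell cannot be told apart.

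None of the 5 genes differed between apetala1 and wild-type inflorescences at an adjusted p of 0.05 after turning. The 5 mean log2 ratios ran from -0.28 for LHB1B2 to 0.19 for SBPASE, 4 of them positive, with a median of 0.16 against -0.02 over all 25415 features. Their limma adjusted p ran from 0.449 to 0.948. In the same fit 0 of the 5 were called, where 0.22% of all features were, 0.197% positive and 0.0236% negative. At an unadjusted p under 0.05 there were likewise 0 of the 5, against 16.3% of all features. The genes differed in the form in which they kept one sign on all 4 arrays. As deposited 3 of the 5 did, SBPASE alone did after turning, and PSBW did in neither form.

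**Figure D1:**
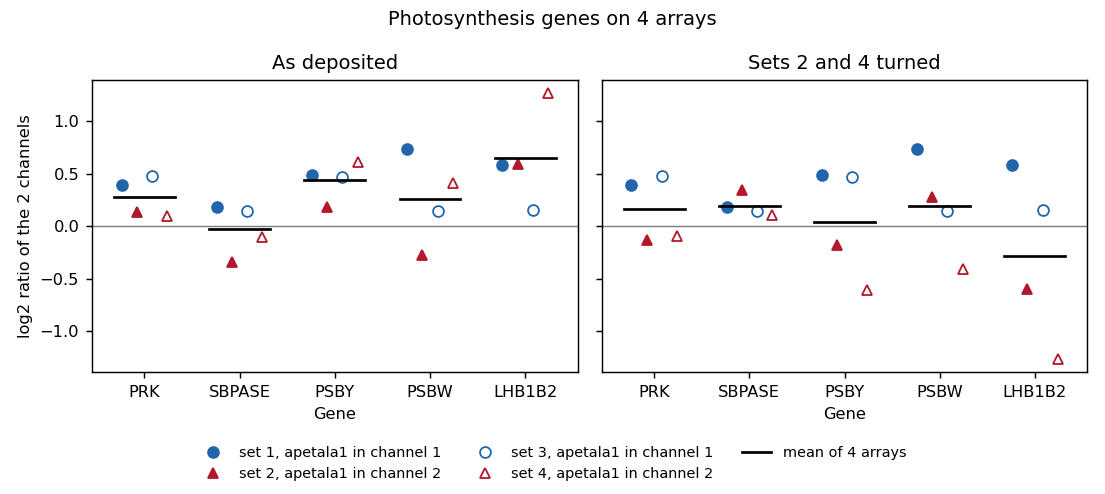
Log2 ratio of the channels (vertical axis) of the 5 genes on each of the 4 arrays, as deposited on the left and with sets 2 and 4 turned on the right; circles are sets 1 and 3, triangles are sets 2 and 4, and bars are means of 4 arrays. PRK, PSBY and LHB1B2 lie above 0 on all 4 arrays as deposited, while SBPASE lies above 0 on all 4 after turning.

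PSBW encodes a small membrane protein of photosystem II that holds the photosystem together with its antenna in larger assemblies. As deposited, its probe A008039_01 gave log2 ratios of 0.74, -0.28, 0.15 and 0.41 on sets 1 to 4. Set 2 alone was negative, so after turning set 4 alone was. The mean after turning was 0.19 ± 0.47 (SD, n = 4; limma adjusted p = 0.675), with a 95% interval from -0.30 to 0.68. Arrays of the same channel order were far apart, by 0.591 between sets 1 and 3 and by 0.689 between sets 2 and 4. The mean as deposited was 0.25.

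PSBY encodes a precursor that is cut into small proteins of the photosystem II membrane. As deposited, its probe A002075_01 gave log2 ratios of 0.49, 0.18, 0.46 and 0.61 on sets 1 to 4. All 4 were positive in both channel orders, so turning put sets 2 and 4 on the other side of 0 and the mean at 0.04 ± 0.53 (SD, n = 4; limma adjusted p = 0.948). The 95% interval of that mean ran from -0.50 to 0.57, and 87.6% of all features had a larger absolute mean ratio. Without turning, the mean was 0.44 ± 0.18 (SD, n = 4), with a 95% interval from 0.11 to 0.76 and an unadjusted limma p of 0.0181, which did not pass adjustment (limma adjusted p = 0.9999).

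LHB1B2, also named LHCB1.5, encodes a chlorophyll a/b-binding protein of the main light-harvesting complex of photosystem II. As deposited, its probe A005741_01 gave log2 ratios of 0.58, 0.59, 0.15 and 1.26 on sets 1 to 4. It was positive on every array, highest on set 4 and lowest on set 3. After turning, the mean was -0.28 ± 0.81 (SD, n = 4; limma adjusted p = 0.686), the only negative mean among the 5 genes, and the 95% interval ran from -1.04 to 0.48. Without set 4 that mean was 0.04, so its sign rests on 1 array.

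As deposited, LHB1B2 had a mean of 0.65 ± 0.46 (SD, n = 4; limma adjusted p = 0.9999). Its 95% interval ran from 0.14 to 1.16, with an unadjusted limma p of 0.0217. Only 4.18% of all features had a larger absolute mean as deposited, against 32.1% that had a larger absolute mean after turning. Its spread between arrays after turning was wide, with 7.85% of features wider. That is no separate result, since turning moves values of one sign in both channel orders apart. Proteins of the LHCB1 group are close copies of one another, and LHB1B1 is the next gene along the chromosome in the TAIR10.1 gene table. The annotation lists LHB1B1 on no probe. Whether the LHB1B2 probe also bound RNA of its relatives was not tested, since probe sequences were not used here.

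PRK encodes phosphoribulokinase, which makes the acceptor of carbon dioxide for Rubisco and is specific to the Calvin cycle. As deposited, its probe A001349_01 gave log2 ratios of 0.39, 0.13, 0.47 and 0.10 on sets 1 to 4. All were positive, and arrays of one channel order lay close together, with a gap of 0.082 between sets 1 and 3 and of 0.0329 between sets 2 and 4. The mean was 0.43 over sets 1 and 3 and 0.12 over sets 2 and 4 as deposited. After turning, the mean of 4 was 0.16 ± 0.32 (SD, n = 4; limma adjusted p = 0.647), with a 95% interval from -0.22 to 0.54. A term for channel order, which takes that pattern out of the error, left PRK at a limma adjusted p of 0.548.

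SBPASE encodes sedoheptulose-bisphosphatase, an enzyme of the regeneration phase of the Calvin cycle. As deposited, its probe A012828_01 gave log2 ratios of 0.18, -0.34, 0.14 and -0.10 on sets 1 to 4. Its sign changed with the channel order, which gave 0.18, 0.34, 0.14 and 0.10 after turning, all positive. The mean after turning was 0.19 ± 0.10 (SD, n = 4; limma adjusted p = 0.449), with a 95% interval from -0.08 to 0.46. This was the smallest spread of the 5 genes, and 94.9% of all features varied more between arrays. The moderated test sets such a small spread against the spread of all features, and its unadjusted p was 0.138.

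The ratio of SBPASE amounts to 1.14-fold, and its interval to between 0.944-fold and 1.38-fold. For the other genes the intervals after turning reached from 0.858-fold to 1.45-fold in PRK and from 0.812-fold to 1.6-fold in PSBW. They reached from 0.709-fold to 1.49-fold in PSBY and from 0.485-fold to 1.39-fold in LHB1B2. These intervals give the changes left possible for each gene by this fit of the 4 arrays, only if turning is right, in the sign of sets 1 and 3. The fit has no channel order term, so a part of the ratio that keeps its sign regardless of channel order counts as spread in them. With that term, limma adjusted p was 0.479 for LHB1B2, 0.911 for PSBY and 0.548 for PRK. For SBPASE and PSBW it was 0.499 and 0.652. As deposited, the log2 intervals ran from 0.14 to 1.16 in LHB1B2 and from 0.11 to 0.76 in PSBY. Those of PRK, PSBW and SBPASE ran from -0.06 to 0.61, from -0.23 to 0.74 and from -0.39 to 0.33. In order of their means after turning the genes ran SBPASE, PSBW, PRK, PSBY and LHB1B2. The intervals after turning overlapped in all 10 pairs of genes, but such an overlap is not a test of a difference. Differences between genes within the same arrays were not tested.

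After turning, 1 of the 5 genes had one sign on all 4 arrays, where 26.2% of all features did. As deposited, 3 of the 5 had one sign, all positive, where 11.3% of all features had one sign and 6.43% were positive on all 4 arrays. These counts are tied, since a gene with one sign as deposited cannot have one sign after turning. The mean as deposited was farther from 0 than the mean after turning in 4 of the 5 genes, SBPASE being the exception, and in 39.9% of all features. With no array turned, limma called 0 of 25415 features and 3.35% had an unadjusted p under 0.05, PSBY and LHB1B2 among them. When channel order was added to the model, its term had an unadjusted p of 0.0129 for LHB1B2, 0.0227 for PSBY and 0.0654 for PRK. In these genes that term equals the mean as deposited. It is thus the same quantity tested against another error, and no separate result. Its limma adjusted p was 0.897 for each of these 3 genes, and 4.55% of all features had an unadjusted p under 0.05 for it.

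**Figure D2:**
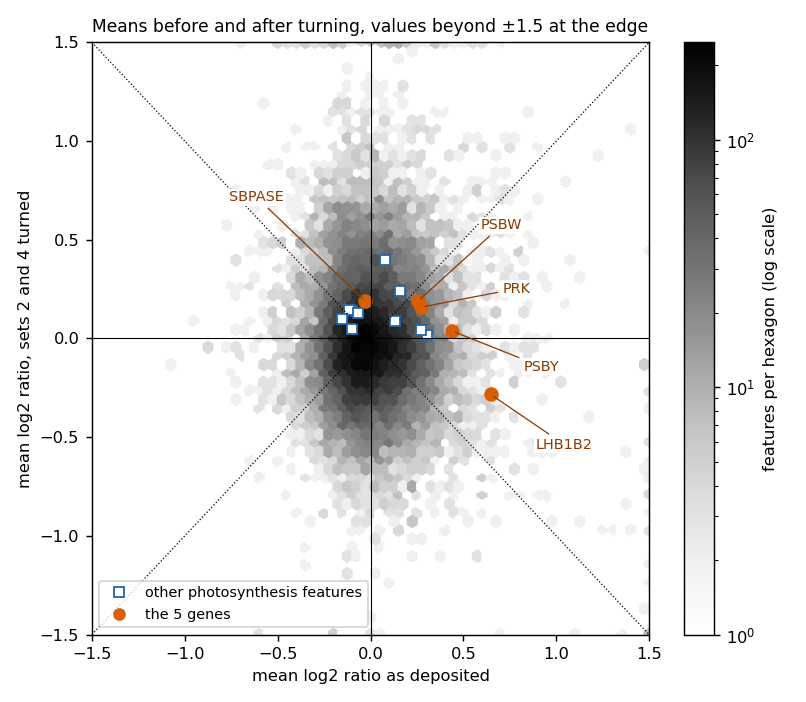
Mean log2 ratio as deposited (horizontal axis) against the mean with sets 2 and 4 turned (vertical axis) for features with 4 values, as hexagons shaded by their number; orange points are the 5 genes, open squares are other photosynthesis features and dotted lines mark equal absolute means. LHB1B2 and PSBY lie far to the right, at 0.65 and 0.44, and SBPASE lies near 0 on the horizontal axis, at -0.03.

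The genes nearest to each of the 5 in their turned ratios were looked up among 5050 other genes with their own probe and 4 values, by Euclidean distance over the 4 arrays. For PRK these were AT1G22010 and AT5G41560, at distances of 0.118 and 0.131 on the log2 scale. For SBPASE they were AT5G60570 and AT5G19050, at 0.0953 and 0.108. For PSBY they were AT5G65490 and AT5G44000 (0.181 and 0.202), and for PSBW AT3G60060 and AT4G23110 (0.109 and 0.164). Within a distance of 0.3, SBPASE had 203 genes, against 36 for PRK, 7 for PSBW and 6 for PSBY. LHB1B2 had 0 genes within that distance, and its nearest were IDH-IV (AT1G32480) at 0.303 and AT3G24250 at 0.350. These counts also depend on how far the values of a gene lie from 0, so they do not show whether a pattern is common. None of the 5 genes was among the 2 nearest to another of them.

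The wider pathway was thinly covered by the annotation, which listed no gene for 13193 of the 26474 probes. Whether those probes include genes of the pathway is not known. Of 159 genes in 10 lists that span both photosystems, electron transport, the Calvin cycle, chlorophyll synthesis, photorespiration, assembly, regulators and sugar products, 11 had a probe of their own. A further 13 were listed only on probes shared with other genes, and 135 were on no probe in the annotation. Electron transport, assembly factors, regulators, and starch and sucrose synthesis had 0 genes with their own probe. The Calvin cycle list had 2 of 24, which are PRK and SBPASE themselves.

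Beside the 5 genes, 6 genes of these lists had their own probe, and 0 of the 6 were called. All 6 mean ratios were positive after turning, from 0.02 to 0.40 with a median of 0.14, where 47% of all features had a positive mean. The median absolute mean over all features was 0.18. As deposited, 3 of the 6 means were positive, where 52.2% of all features were. AT1G80380, from the photorespiration list, had the largest, with 0.53, 0.26, 0.42 and 0.38 on sets 1 to 4 after turning. These 4 values were all positive, and the mean was 0.40 ± 0.11 (SD, n = 4; limma adjusted p = 0.208, unadjusted p = 0.0128). It was the 1 gene of the 11 with an unadjusted p under 0.05, where 16.3% of all features had one.

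HPR (AT1G68010), the hydroxypyruvate reductase of photorespiration, followed at 0.24 ± 0.27 (limma adjusted p = 0.459), positive on sets 1 to 3 and negative on set 4 after turning. PSAN, a subunit of photosystem I on the side where plastocyanin docks, had 0.14 ± 0.22 (limma adjusted p = 0.620). PSB27, which assists the assembly and repair of photosystem II, had 0.05 ± 0.12 (limma adjusted p = 0.870). Neither was near the means of PSBY or LHB1B2 as deposited, with -0.12 for PSAN and -0.10 for PSB27. In chlorophyll synthesis, the methyltransferase gene CHLM had 0.14 ± 0.35 (limma adjusted p = 0.710) and AT1G74470, which the gene table names geranylgeranyl reductase, had 0.02 ± 0.40 (limma adjusted p = 0.969). AT1G74470 was positive on all 4 arrays as deposited, with 0.18, 0.10, 0.47 and 0.46, as PSBY was. PSB27 also kept one sign as deposited, but on the other side of 0, with -0.05, -0.18, -0.06 and -0.11.

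**Figure D3:**
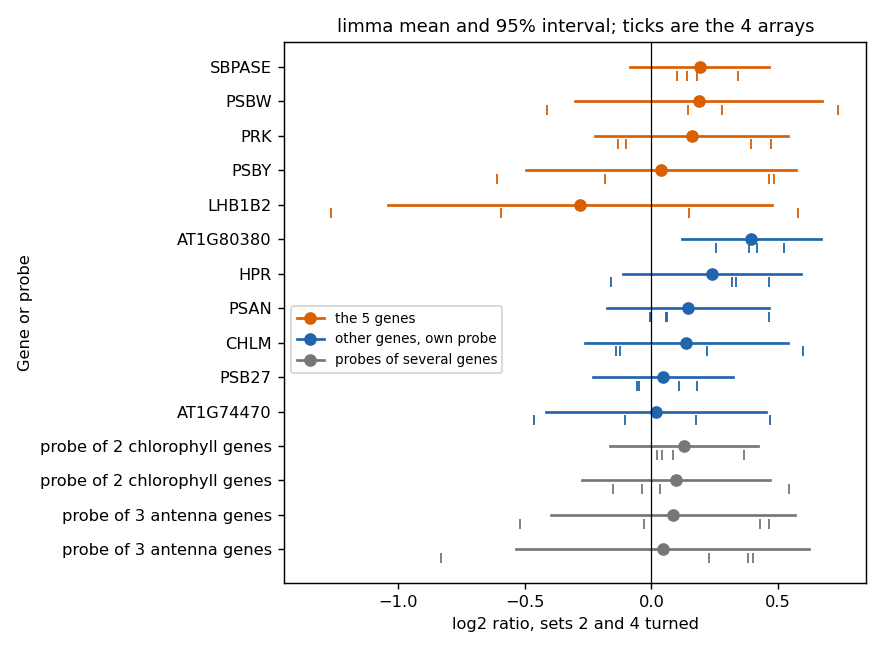
Mean log2 ratio after turning (horizontal axis, points) with the 95% limma interval (lines) and the 4 array values (ticks) for the 5 genes in orange, the 6 other genes with their own probe in blue and 4 probes shared by genes of one list in grey. All intervals but that of AT1G80380 include 0, and LHB1B2 has the widest.

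Another 4 probes were each assigned to several genes that all belong to one list, so they name no single gene. Of these, 0 were called, and their means after turning lay between 0.04 and 0.13. A pair of them, each assigned to 3 genes of the photosystem II antenna, had their most positive deposited value on set 4, at 0.83 and 0.52, as LHB1B2 did at 1.26. These antenna values were compared after they had been seen. On set 2 the same pair had -0.38 and -0.43 as deposited, on the other side of 0 from the 0.59 of LHB1B2. Over all 15 photosynthesis features 0 were called. After turning, 14 of the 15 means were positive, LHB1B2 being the exception, where 47% of all features were. The median absolute mean of the 15 was 0.14, against 0.18 over all features. The 4 shared probes formed pairs assigned to the same genes, so the 15 features do not stand for 15 separate genes. As deposited, 9 of the 15 were positive, where 52.2% of all features were.

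Of 24 marker genes for meristem, ovule and carpel, pollen, tapetum and trichome, 4 had their own probe. Of these 0 were called, where 0.22% of all features were. After turning, CLV3 of the meristem had a mean of 0.17 ± 0.50 (SD, n = 4; limma adjusted p = 0.717). INO of the ovule had 0.17 ± 0.32 (limma adjusted p = 0.628). The tapetum genes SHT and ATA20 had -0.71 ± 0.88 and -0.30 ± 0.45 (limma adjusted p = 0.360 and 0.481). A ratio within an array does not give a level, so the presence of an organ could not be checked. Their part in the values of the 5 genes was not tested.

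**Figure D4:**
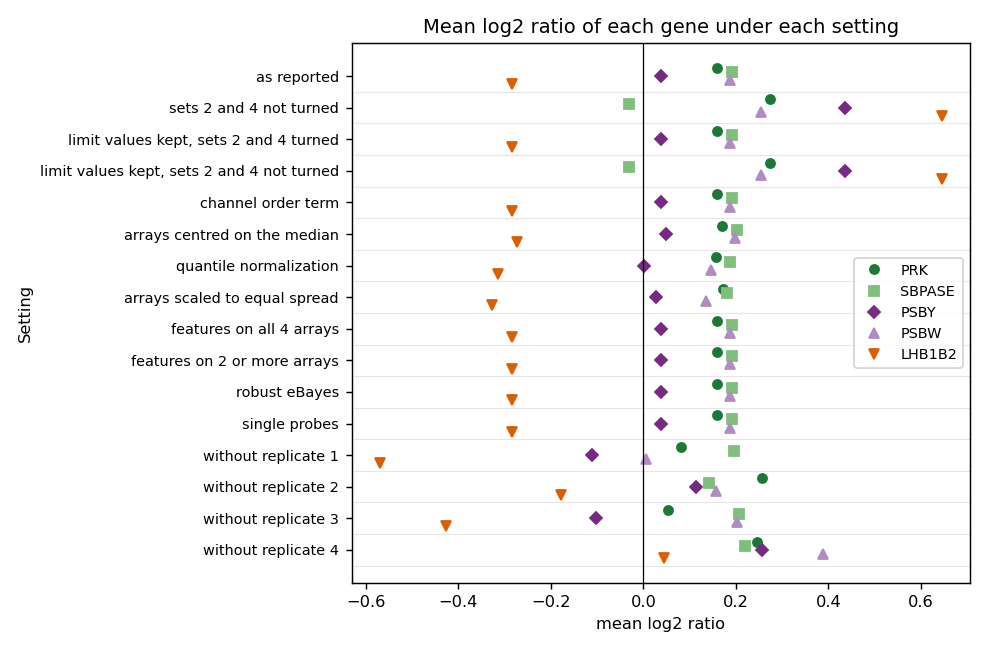
Mean log2 ratio (horizontal axis) of each of the 5 genes under the reported setting and 15 alternatives (vertical axis). With no array turned LHB1B2 lies at 0.65 and SBPASE at -0.03, and without replicate 4 LHB1B2 lies at 0.04.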

How the data were processed

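Each deposited value is an array's log2 channel ratio, which the authors normalized by a published method, per the labels. The software, background correction and dyes are not stated there. The log base follows from the values, which stop at the log2 of 100, or 6.64. The numerator channel is unknown. The medians over probes were -0.00, 0.06, 0.04 and 0.03 on sets 1 to 4, so the columns are not exactly centred. Of 26933 rows, 26474 held probes, and 26367 to 26436 of them had a value on an array. Value columns without a sample numbered 0.

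The 2765 probe values at these limits were dropped, and none of the 5 genes had one. Sets 2 and 4 were turned. Probes were named through the platform annotation, which gave 1 gene for 5784, several for 7497 and none for 13193, and through the TAIR10.1 gene table, which held a locus for 5756 of the first. Probes with several genes name none. Probes of one gene were averaged. Features with 3 or more values were tested two-sided against 0 in limma 3.58.1 (lmFit, eBayes; R 4.3.3), adjusted by Benjamini-Hochberg over 25415 features and called at an adjusted p under 0.05. The fit was tested on simulated data.

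The members and lists were chosen with earlier results of these data known. Of 183 list entries, written from memory, 157 had the written symbol at their locus, and the rest were used by locus. Values are given by name for the 5 genes, the organ markers with their own probe, the other list genes with their own probe and the 2 nearest genes to each. Alternatives were the turning, the limit values, a channel order term, centring, scaling, quantile normalization, the filter, robust eBayes, single probes and leaving out each array.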

Additional observations from a re-analysis of the deposited data

Results flagged for a closer look

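Dixon's ratio was computed for the 15 photosynthesis features, after turning and as deposited, which makes 30 sets of 4 values. In 2 of them 1 array stood apart, and chance picks out about 1 in 20. None of these was a value of the 5 genes. For PSAN, the 0.47 on set 2 after turning stood apart from the other arrays, which lay between -0.01 and 0.06. For the probe A005163_01, assigned to 3 antenna genes, the -0.83 on set 4 after turning stood apart from values between 0.23 and 0.40.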

How the results depend on the processing

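None of the 5 genes and none of the 15 photosynthesis features was called under any of the 15 alternatives. Limma adjusted p over these alternatives was at least 0.433 for SBPASE, 0.355 for PSBW, 0.545 for PRK, 0.554 for PSBY and 0.480 for LHB1B2. The means of PRK (0.05 to 0.27) and PSBW (0.00 to 0.39) were positive in all 15, which does not show that their signs are stable. The 0.27 of PRK is its mean with no array turned, which is another quantity than the mean after turning. After turning, PRK was positive on 2 of the 4 arrays, and PSBW fell to 0.0047 without replicate 1. With sets 2 and 4 not turned, with limit values left out or kept, the mean was 0.65 for LHB1B2 and -0.031 for SBPASE, both on the other side of 0. Leaving out each array gave -0.57 to 0.04 for LHB1B2, -0.11 to 0.26 for PSBY, 0.05 to 0.26 for PRK, 0.00 to 0.39 for PSBW and 0.14 to 0.22 for SBPASE. LHB1B2 changed sign without replicate 4 (0.044), and PSBY did without replicate 1 (-0.11) or replicate 3 (-0.10). The cause was not tested. The count of 56 called features, 50 positive and 6 negative, holds none of the 5 genes. With no array turned it was 0, and 152 with limit values kept as well. Those 152 were all positive, and they were called only where values at the limits were kept. The count was 1 with limit values kept and arrays turned, and 1 with a channel order term. It was 18 with quantile normalization, 19 with arrays scaled to equal spread, 140 with features on all 4 arrays and 109 with robust eBayes. It was 0 to 38 without 1 array. Each ratio already pairs both RNAs within an array, so no further pairing was fitted.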
